A study of Saccharomyces cerevisiae with 6 samples.

Results

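The non-oxidative pentose phosphate genes of Saccharomyces cerevisiae are the 7 genes RPE1, RKI1, TKL1, TKL2, TAL1, NQM1 and SHB17. They were taken by name from the deposited expression table, where each had 1 gene model, and are 7 of its 5625 gene models. All 7 were above the level needed for testing, a mean of at least 1 FPKM, as were 5459 gene models in all. FPKM (reads per kilobase of gene, scaled to library depth) is a level per unit of length, so genes can be compared with each other.

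Polyadenylated RNA was sequenced from 3 strains with 2 aerobic cultures each, which the study's design calls biological duplicates; those of IMX605 and IMX606 were bioreactor cultures on what the labels name SMD. IMX605 carries its glycolytic genes at 1 place on chromosome V (libraries R12 and R7), IMX606 carries them at 1 place on chromosome IX (R13 and R8), and IMX372 has the major paralogs at their native loci (DSE001 and DSE002). IMX372 is known as a minimal glycolysis strain whose minor glycolytic isoenzyme genes were deleted, a background that the single-locus strains share. Of 13 such minor genes, 12 had a gene model. By strain mean the highest of them was TDH2, a glyceraldehyde 3-phosphate dehydrogenase gene, though it was not the highest in library R12. It read 1.64 and 7.96 FPKM in IMX605 (R12 and R7), 6.89 and 6.42 FPKM in IMX606 (R13 and R8), and 23.1 and 43.4 FPKM in IMX372 (DSE001 and DSE002). These TDH2 values (1626 and 829 reads in IMX372 DSE001 and DSE002) are uncertain, since TDH2 is nearly identical to the retained TDH3. Which gene these reads came from was not tested. URA3, a uracil synthesis gene used as a selection marker, read 9506 FPKM in IMX605 and 10336 FPKM in IMX606, against 263.2 FPKM in IMX372. Per the labels the IMX372 libraries came from an earlier deposit, so library set, URA3 level and gene location cannot be told apart in comparisons with IMX372. Reads on genes numbered 18754741 to 21370278 in 5 libraries and 70510681 in IMX372 DSE001, and 3 reads on a gene of 1 kb would give 0.0425 to 0.160 FPKM, a floor that covers counting error only.

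The pentose phosphate pathway runs beside glycolysis. Its oxidative branch turns glucose 6-phosphate into ribulose 5-phosphate and makes NADPH, and its non-oxidative branch interconverts sugar phosphates reversibly, linking pentose phosphates to fructose 6-phosphate and glyceraldehyde 3-phosphate of glycolysis. In this way cells obtain ribose 5-phosphate for nucleotides and erythrose 4-phosphate for aromatic amino acids, or return surplus pentose to glycolysis. RKI1 (isomerase) and RPE1 (epimerase) act on ribulose 5-phosphate, transketolase (TKL1, TKL2) and transaldolase (TAL1, NQM1) move carbon units between sugars, and SHB17, a sedoheptulose bisphosphatase, drives a route from glycolytic intermediates to ribose called riboneogenesis.

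In both single-locus strains the low-level paralogs moved in opposite directions: NQM1 rose and TKL2 fell, while the abundant paralogs TAL1 and TKL1 passed the test in neither comparison. RKI1 fell in both. RPE1 rose in IMX605 and, only just past the threshold, in IMX606 (called in 7 of 16 alternative settings), and SHB17 fell in IMX606 by as narrow a margin (5 of 16). Of the 7 members 2 rose, 2 fell and 3 did not pass in IMX605 against IMX372, where 15.0% of all genes tested rose, 15.0% fell and 30.0% were called in either direction. In IMX606 against IMX372 2 rose, 3 fell and 2 did not pass, against 11.1% of all genes higher, 12.8% lower and 23.9% in either direction. Over all genes 604 rose and 700 fell in IMX606, a split that became 740 and 558 with median-of-ratios factors. The median change of the members was -0.09 in IMX605 and 0.013 in IMX606 on the log2(FPKM + 1) scale, and that of all genes tested was -0.03 and -0.06. Both comparisons use the same IMX372 libraries, so they are not independent of each other. Calls are limma's with Benjamini-Hochberg adjustment over all genes tested, at an adjusted p under 0.05.

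**Figure D1:**
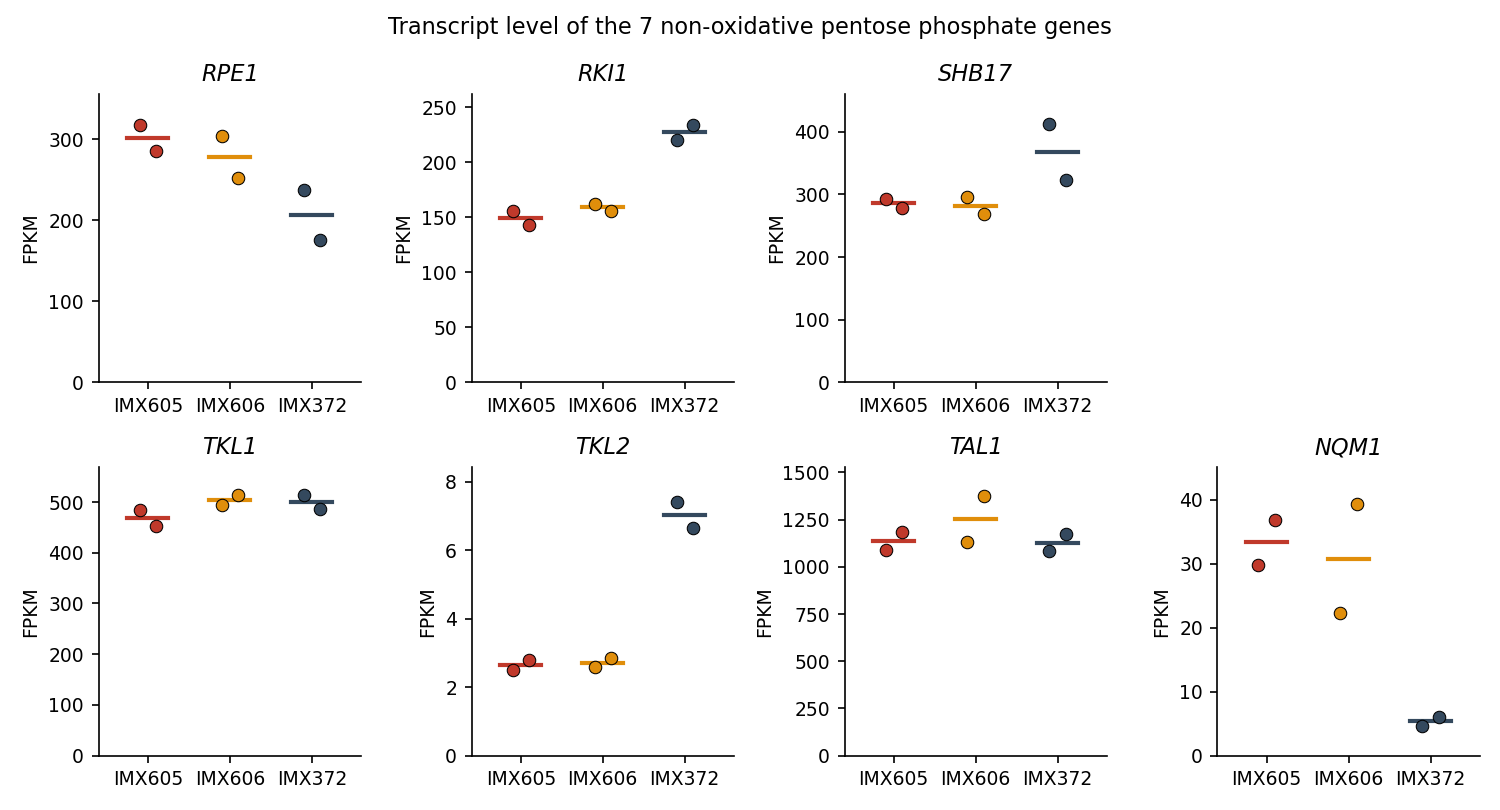
FPKM of each gene (vertical axes, starting at 0) in the 2 libraries (points) of IMX605, IMX606 and IMX372, with the mean of each strain as a bar. NQM1 stands at 22.3 to 39.3 FPKM in the single-locus strains and at 4.68 and 6.01 FPKM in IMX372, and TKL2 lies below 3 FPKM in the single-locus strains and at 7.42 and 6.65 FPKM in IMX372.

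RKI1, ribose 5-phosphate isomerase (YOR095C, chromosome 15, 503451 to 504227, minus strand), makes the ribose 5-phosphate from which nucleotides are built. Its level was 155.3 and 143.0 FPKM in IMX605 (R12 and R7), 162.1 and 155.8 FPKM in IMX606 (R13 and R8), and 220.7 and 234.1 FPKM in IMX372 (DSE001 and DSE002). All 4 single-locus libraries lay below both IMX372 libraries. RKI1 fell by 0.61 on the log2 scale in IMX605 (SE 0.10, adjusted p = 0.00126) and by 0.51 in IMX606 (SE 0.10, adjusted p = 0.00437) by limma, to 65.6% and 69.9% of the IMX372 mean. Both calls held in all 16 alternative settings run. In RNA from whole cultures, fewer cells with a transcript and less transcript per cell cannot be told apart.

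RPE1, ribulose 5-phosphate 3-epimerase (YJL121C, chromosome 10, 179125 to 179841, minus strand), makes xylulose 5-phosphate, the other product of the same substrate and the donor for transketolase. It read 316.9 and 285.8 FPKM in IMX605 (R12 and R7), 303.6 and 252.1 FPKM in IMX606 (R13 and R8), and 236.7 and 174.9 FPKM in IMX372 (DSE001 and DSE002). The strains did not overlap, but the gap between IMX606 R8 and IMX372 DSE001 was smaller than the difference between the IMX372 libraries. RPE1 rose by 0.56 on the log2 scale in IMX605 (SE 0.15, adjusted p = 0.0145) and by 0.44 in IMX606 (SE 0.15, adjusted p = 0.0491) by limma. The IMX605 call ended without IMX372 DSE002 (0.35, adjusted p = 0.152), without IMX605 R12 (0.49, adjusted p = 0.0767) and without the filter on low values (adjusted p = 0.0617), and the IMX606 call held in 7 of 16 settings, its change shrinking to 0.22 without IMX372 DSE002 (adjusted p = 0.360) and to 0.31 without IMX606 R13 (adjusted p = 0.180).

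By strain mean RPE1 stood above RKI1 in the single-locus strains and below it in IMX372, where the order rests on 1 library. In IMX605 RPE1 averaged 301.3 ± 22.0 FPKM and RKI1 149.1 ± 8.71 FPKM (SD, n = 2), and in IMX606 they averaged 277.8 ± 36.4 and 158.9 ± 4.45 FPKM (SD, n = 2). In IMX372 RPE1 averaged 205.8 ± 43.7 FPKM and RKI1 227.4 ± 9.49 FPKM (SD, n = 2), and their libraries overlapped. RPE1 was above RKI1 in DSE001 (236.7 against 220.7 FPKM) and below it in DSE002 (174.9 against 234.1 FPKM).

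SHB17, sedoheptulose 1,7-bisphosphatase (YKR043C, chromosome 11, 526813 to 527628, minus strand), removes a phosphate from sedoheptulose bisphosphate. It read 292.2 and 278.9 FPKM in IMX605 (R12 and R7), 295.3 and 268.1 FPKM in IMX606 (R13 and R8), and 412.2 and 323.3 FPKM in IMX372 (DSE001 and DSE002). Every single-locus library lay below both IMX372 libraries, which differed from each other by more than the 4 single-locus libraries did. The change was -0.35 in IMX605 (SE 0.12, adjusted p = 0.0512), short of the threshold, with a 95% interval of -0.63 to -0.08. By limma SHB17 fell in IMX606, by 0.37 (SE 0.12, adjusted p = 0.0490). These sit on either side of the threshold, and the call was made in 6 of 16 alternative settings for IMX605 and in 5 of 16 for IMX606. Without IMX372 DSE001 the changes shrank to -0.18 (adjusted p = 0.292) and -0.20 (adjusted p = 0.262), and without IMX372 DSE002 they grew to -0.53 (adjusted p = 0.0268) and -0.55 (adjusted p = 0.0279).

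To set the promoters of the paralogs side by side, the 250 bases before the start codon of each transketolase and transaldolase gene are given here from the RefSeq R64 genome of strain S288C, all on the minus strand and 5′ to 3′. They lie at chrII:476438-476687 for TKL2, chrXVI:694839-695088 for TKL1, chrVII:581437-581686 for NQM1 and chrXII:837358-837607 for TAL1. The deposited coordinates are on CEN.PK113-7D sequences, and the bases of the strains used here may differ from those of S288C. Capitals mark the stress response element AGGGG, the site known for the regulators Msn2 and Msn4, on either strand (CCCCT on the other).
TKL2: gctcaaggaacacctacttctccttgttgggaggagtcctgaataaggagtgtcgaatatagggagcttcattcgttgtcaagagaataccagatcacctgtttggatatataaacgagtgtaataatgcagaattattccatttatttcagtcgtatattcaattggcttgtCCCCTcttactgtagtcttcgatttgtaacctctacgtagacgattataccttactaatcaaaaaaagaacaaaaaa
TKL1: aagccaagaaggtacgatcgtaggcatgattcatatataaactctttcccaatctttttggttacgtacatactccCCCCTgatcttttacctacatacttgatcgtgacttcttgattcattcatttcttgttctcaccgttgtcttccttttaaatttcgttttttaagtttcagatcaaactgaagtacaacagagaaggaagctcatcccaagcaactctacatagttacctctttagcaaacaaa
NQM1: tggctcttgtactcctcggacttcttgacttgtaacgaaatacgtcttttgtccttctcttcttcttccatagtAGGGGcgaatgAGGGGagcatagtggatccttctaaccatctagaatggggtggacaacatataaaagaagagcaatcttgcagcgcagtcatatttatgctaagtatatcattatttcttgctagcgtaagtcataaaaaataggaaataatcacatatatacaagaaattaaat
TAL1: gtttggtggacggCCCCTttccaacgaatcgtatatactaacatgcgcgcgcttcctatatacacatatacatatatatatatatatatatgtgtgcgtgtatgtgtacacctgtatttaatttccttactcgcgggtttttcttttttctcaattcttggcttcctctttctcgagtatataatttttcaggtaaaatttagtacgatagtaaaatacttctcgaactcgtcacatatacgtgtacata

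The element occurs 2 times before NQM1, 176 and 165 bases from the start codon, and 1 time each before TKL2 (77 bases), TKL1 (174 bases) and TAL1 (237 bases). No match lies in the same window of RPE1, RKI1 or SHB17. Of 6007 promoters of this length in the genome 18.8% hold at least 1 match and 2.23% hold 2 or more. The core bound by Gcr1, CTTCC, a site known from glycolytic promoters, occurs 2 times each before TKL1 and TAL1, 1 time before NQM1 and not in the other 4 windows, and 39.3% of all promoters hold it. A TATAAA element lies before TKL2, TKL1, NQM1, RKI1 and SHB17 but not in the windows of TAL1 and RPE1, and 43.5% of all promoters hold it. The Yap1 site TTACTAA occurs before TKL2 alone, 26 bases from the start codon (6.69% of all promoters), and the Gcn4 site TGACTC in none of the 7 windows (6.24% of all promoters). Each motif was searched on both strands, and no match overlapped another. TKL2, which fell, holds 1 stress response element, NQM1, which rose, holds 2, and TKL1 and TAL1, which were not called, hold 1 each. Whether the element affects these levels was not tested.

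**Figure D2:**
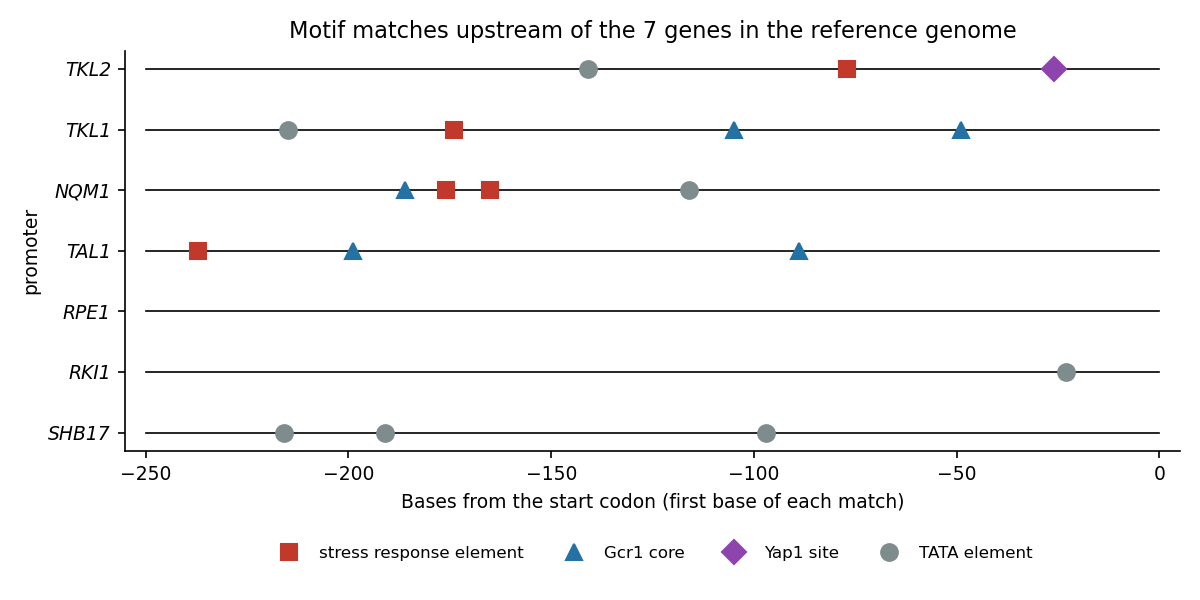
Positions of motif matches (symbols, first base of each match) in the 250 bases before the start codon of the 7 genes in the reference genome (horizontal axis, bases from the start codon). Stress response elements lie before TKL2, TKL1, NQM1 and TAL1 and in none of the other 3 windows.

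Transketolase is encoded by TKL1, the main form, and by its paralog TKL2. TKL1 (YPR074C, chromosome 16, 700936 to 702978, minus strand) read 484.6 and 452.2 FPKM in IMX605 (R12 and R7), 494.3 and 514.2 FPKM in IMX606 (R13 and R8), and 514.1 and 485.5 FPKM in IMX372 (DSE001 and DSE002). The 6 libraries lay close together, those of IMX606 overlapped those of IMX372, and those of IMX605 lay just below them. The change of TKL1 was -0.09 in IMX605 (95% interval -0.31 to 0.12, adjusted p = 0.497) and 0.013 in IMX606 (95% interval -0.20 to 0.23, adjusted p = 0.937) by limma, the second below 0 with equal sums of FPKM.

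TKL2 (YBR117C, chromosome 2, 462158 to 464203, minus strand), the minor transketolase, read 2.50 and 2.78 FPKM in IMX605 (R12 and R7), 2.58 and 2.86 FPKM in IMX606 (R13 and R8), and 7.42 and 6.65 FPKM in IMX372 (DSE001 and DSE002). These levels rest on 103, 111, 99 and 125 reads in the single-locus libraries (R12, R7, R13 and R8) and on 1071 and 260 reads in IMX372 (DSE001 and DSE002). The strains did not overlap. TKL2 fell to 37.5% of the IMX372 mean in IMX605 and to 38.6% in IMX606, and limma's log2 change was -1.14 in IMX605 (SE 0.18, adjusted p = 0.000721) and -1.11 in IMX606 (SE 0.18, adjusted p = 0.00101). Each call held in all 15 settings in which TKL2 was tested. At this level the added pseudocount shrinks the change, which was -1.44 and -1.40 by voom on the recovered reads and -0.66 and -0.64 with a pseudocount of 5.

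Transaldolase is encoded by TAL1 and its paralog NQM1, and TAL1 (YLR354C, chromosome 12, 795841 to 796848, minus strand) was the most abundant of the 7 transcripts in every strain. It read 1091 and 1184 FPKM in IMX605 (R12 and R7), 1131 and 1376 FPKM in IMX606 (R13 and R8), and 1084 and 1173 FPKM in IMX372 (DSE001 and DSE002). The strains overlapped, with IMX606 R8 the highest library. The change of TAL1 was 0.011 in IMX605 (95% interval -0.24 to 0.26, adjusted p = 0.954) and 0.15 in IMX606 (95% interval -0.10 to 0.39, adjusted p = 0.373) by limma. The IMX605 change is below 0 with equal sums of FPKM and with quantile normalization.

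NQM1 (YGR043C, chromosome 7, 603993 to 604994, minus strand), whose product is a transaldolase known to be induced at the diauxic shift, read 29.9 and 36.9 FPKM in IMX605 (R12 and R7), 22.3 and 39.3 FPKM in IMX606 (R13 and R8), and 4.68 and 6.01 FPKM in IMX372 (DSE001 and DSE002). The single-locus libraries hold 602, 720, 419 and 841 reads (R12, R7, R13 and R8), and the IMX372 libraries 331 and 115 (DSE001 and DSE002). All 4 single-locus libraries stood far above IMX372, and the spread was widest in IMX606. NQM1 rose by 2.44 on the log2 scale in IMX605 (SE 0.22, adjusted p = 1.19e-05) and by 2.28 in IMX606 (SE 0.22, adjusted p = 2.28e-05) by limma, and its mean FPKM was 6.24 and 5.76 times that of IMX372. Both calls held in all 16 settings, with log2 changes between 1.89 and 2.72 in IMX605 and between 1.75 and 2.67 in IMX606.

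**Figure D3:**
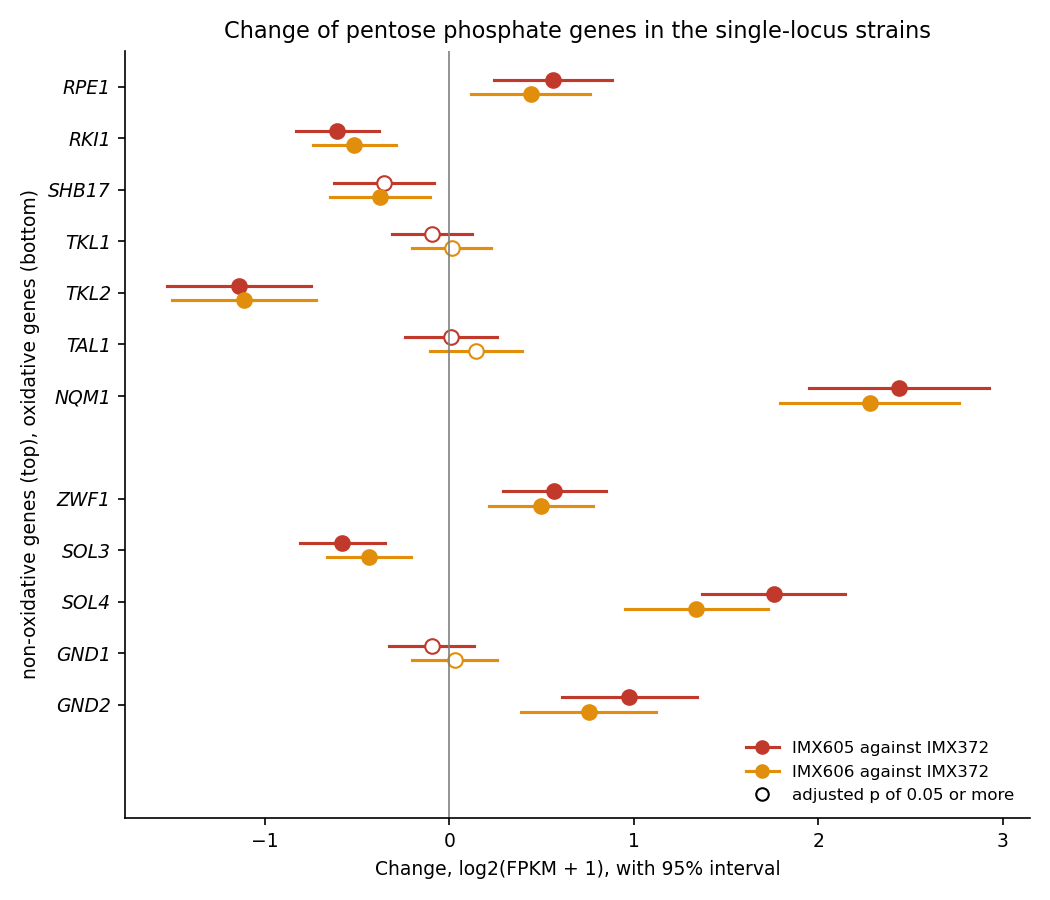
Log2 change on the log2(FPKM + 1) scale (horizontal axis) of the non-oxidative genes (upper rows) and the oxidative genes (lower rows) in IMX605 and IMX606 against IMX372, with limma's 95% intervals as lines and open points where the adjusted p is 0.05 or more. NQM1 lies at 2.44 and 2.28, TKL2 at -1.14 and -1.11, and the intervals of TKL1, TAL1 and GND1 include 0.

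Within each library the paralogs can be compared directly, since library scaling cancels in their ratio. TKL2 made up 0.514% and 0.612% of the summed transketolase FPKM in IMX605 (R12 and R7), 0.519% and 0.553% in IMX606 (R13 and R8), and 1.42% and 1.35% in IMX372 (DSE001 and DSE002). TKL1 thus exceeded TKL2 by 162.5-fold to 193.7-fold in the single-locus libraries and by 69.3-fold and 73.0-fold in IMX372 (DSE001 and DSE002). NQM1 made up 2.66% and 3.02% of the summed transaldolase FPKM in IMX605 (R12 and R7), 1.93% and 2.78% in IMX606 (R13 and R8), and 0.430% and 0.510% in IMX372 (DSE001 and DSE002). The minor form therefore took a smaller share of the transketolase pair and a larger share of the transaldolase pair in the single-locus strains, and it stayed under 4% of its pair in every library.

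The mean log2 ratio of TKL2 to TKL1 was -7.47 ± 0.18 for IMX605, -7.54 ± 0.06 for IMX606 and -6.15 ± 0.05 for IMX372 (SD, n = 2 each), so it was lower by 2.50-fold and 2.61-fold than in IMX372 (log2 differences of -1.32 and -1.38). The mean log2 ratio of NQM1 to TAL1 was -5.10 ± 0.13 for IMX605, -5.40 ± 0.38 for IMX606 and -7.73 ± 0.17 for IMX372 (SD, n = 2 each), higher by 6.21-fold and 5.04-fold than in IMX372 (log2 differences of 2.63 and 2.33). In these 4 comparisons the strains did not overlap, and the exact permutation test (2-sided) gave p = 0.333, the smallest that 2 cultures against 2 allow. Between IMX605 and IMX606 the ratios overlapped, with differences of 0.07 for TKL2 to TKL1 (p = 1, exact permutation test) and 0.30 for NQM1 to TAL1 (p = 0.667, exact permutation test). The second was 0.032 without IMX606 R13 and 0.57 without IMX606 R8.

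**Figure D4:**
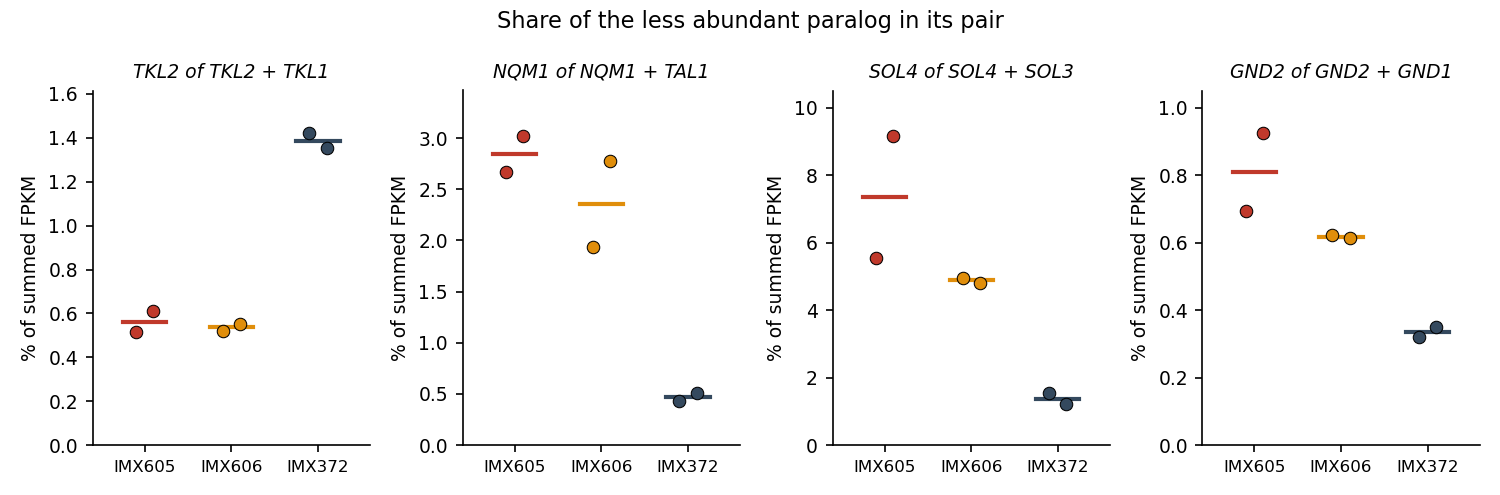
Share of the less abundant paralog in the summed FPKM of its pair (vertical axes, in percent, starting at 0) in the 2 libraries (points) of each strain, with the strain mean as a bar. The share of TKL2 is 0.514% to 0.612% in the single-locus libraries against 1.35% and 1.42% in IMX372, and those of NQM1, SOL4 and GND2 are higher in the single-locus libraries.

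The paralogs differ along their whole coding sequence. In the RefSeq R64 genome the coding sequences of TKL2 and TKL1 are identical at 1416 of 2041 aligned bases (69.4%), and those of NQM1 and TAL1 at 685 of 1000 (68.5%), and the longest run without a difference is 17 bases in each pair. The encoded transketolases share 71.5% of aligned residues and the transaldolases 68.5%. No member had a second match in that genome of at least 95% identity over 200 bases.

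Across the strains the levels of the 7 genes kept a wide range. TAL1 took 47.8% of the summed FPKM of the 7 in IMX605, 49.9% in IMX606 and 46.2% in IMX372, followed by TKL1 with 19.7%, 20.1% and 20.5%. In IMX605 the order after TKL1 was RPE1, SHB17, RKI1, NQM1 and TKL2, in which RPE1 and SHB17 overlapped. In IMX606 it was SHB17, RPE1, RKI1, NQM1 and TKL2, and again RPE1 and SHB17 overlapped. In IMX372 it was SHB17, RKI1, RPE1, TKL2 and NQM1, in which RKI1 and RPE1 overlapped. TKL2 thus stood above NQM1 in IMX372 and below it in the single-locus strains. NQM1 exceeded 39.8% of all gene models in IMX605, 37.5% in IMX606 and 7.9% in IMX372, and TKL2 exceeded 5.5%, 5.5% and 9.9%. Summed over the 7 genes, the level was 2372 and 2384 FPKM in IMX605 (R12 and R7), 2411 and 2608 FPKM in IMX606 (R13 and R8), and 2480 and 2403 FPKM in IMX372 (DSE001 and DSE002), with overlap between IMX606 and IMX372.

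The 2 positions of the single locus, chromosome V in IMX605 and chromosome IX in IMX606, were compared directly. Of the 7 genes limma called 0, voom called 0 and 0 had an unadjusted p under 0.05. Over all 5459 genes tested limma called 11 (0.202%), voom called 11 and 199 had an unadjusted p under 0.05. With so few over all genes, 0 of 7 says little about the members. The largest difference was that of NQM1, 0.16 on the log2 scale with a 95% interval of -0.33 to 0.64 (adjusted p = 0.998), and its sign turned to -0.24 without IMX606 R13. For RKI1 the difference was -0.09 (95% interval -0.32 to 0.13), and for TKL2 -0.03 (95% interval -0.42 to 0.36). Differences of these sizes are not shown to be absent. The libraries of IMX605 lay below those of IMX606 without overlap for RKI1 and TKL1, and the strains overlapped for the other 5 genes. With 2 cultures against 2, full separation gives an exact permutation p of 0.333, so it does not show a difference for these genes. The share of all genes without overlap was not counted. NQM1 was lower in R12 and R13 than in R7 and R8, and so was TAL1, and the part of library differences in these values was not tested.

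The oxidative branch, which supplies the ribulose 5-phosphate, also holds 2 paralog pairs. Of its 5 genes 3 rose, 1 fell and 1 did not pass in each single-locus strain against IMX372, where 30.0% of all genes tested were called in IMX605 and 23.9% in IMX606, with a median change of 0.57 in IMX605 and 0.50 in IMX606. ZWF1, glucose 6-phosphate dehydrogenase, which opens the pathway, averaged 492.9 FPKM in IMX605 and 469.9 FPKM in IMX606, against 334.2 FPKM in IMX372, and limma's log2 change was 0.57 in IMX605 (adjusted p = 0.00668) and 0.50 in IMX606 (adjusted p = 0.0167). The ZWF1 calls ended without IMX372 DSE002 (0.39, adjusted p = 0.0768 in IMX605, and 0.32, adjusted p = 0.149 in IMX606), and that in IMX606 also without IMX606 R13 (adjusted p = 0.0577) and without the filter on low values (adjusted p = 0.0573).

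The lactonase genes SOL3 and SOL4 moved apart. SOL4, the minor form, averaged 29.2 FPKM in IMX605 and 21.2 FPKM in IMX606, against 7.80 FPKM in IMX372, and rose by 1.76 in IMX605 (adjusted p = 2.75e-05) and by 1.34 in IMX606 (adjusted p = 0.000243) in limma's fit. SOL3, the abundant form, averaged 373.8 and 412.4 FPKM in IMX605 and IMX606, against 557.9 FPKM in IMX372, and fell by 0.58 in IMX605 (adjusted p = 0.00186) and by 0.44 in IMX606 (adjusted p = 0.0118), and the IMX606 call ended without IMX372 DSE002 (adjusted p = 0.0848). Of the 6-phosphogluconate dehydrogenase genes, the minor GND2 averaged 7.66 and 6.41 FPKM in IMX605 and IMX606, against 3.38 FPKM in IMX372, and rose by 0.98 in IMX605 (adjusted p = 0.00127) and by 0.76 in IMX606 (adjusted p = 0.00749), and the IMX606 call ended without IMX372 DSE002 (0.75, adjusted p = 0.0574). The abundant GND1 was not called, with changes of -0.10 in IMX605 (95% interval -0.33 to 0.13, adjusted p = 0.520) and 0.03 in IMX606 (95% interval -0.20 to 0.26, adjusted p = 0.853), the second below 0 with quantile normalization. Of the 4 minor paralogs in the whole pathway, NQM1, SOL4 and GND2 rose and TKL2 fell in both strains.

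Pentoses from outside enter the pathway through a few kinases and reductases. Of the 4 such genes listed (the xylulokinase gene XKS1, the ribokinase gene RBK1, the xylitol dehydrogenase gene XYL2 and the aldose reductase gene GRE3) limma called 0 in either strain. Of all genes tested limma called 30.0% in IMX605 and 23.9% in IMX606. In IMX605 1 of the 4 had an unadjusted p under 0.05 and voom called 1, against 2310 and 1779 of all 5459 genes tested. In IMX606 both counts were 0, against 2033 and 1417 of all genes.

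A further list held 12 genes of routes that start from sugar phosphates made by the pathway. Some of them, such as ARO1, act later in their route and do not use such a sugar themselves. Against IMX372 limma called 3 of the 12 higher and 5 lower in IMX605, with 4 uncalled. The counts for IMX606 were 3 higher, 3 lower and 6 uncalled. Of all genes tested 15.0% rose and 15.0% fell in IMX605, and 11.1% rose and 12.8% fell in IMX606. SNZ1 and SNO1, which form the vitamin B6 synthase that uses ribose 5-phosphate, rose in both strains. SNZ1 read 333.4 and 530.0 FPKM in IMX605 (R12 and R7), 331.3 and 596.3 FPKM in IMX606 (R13 and R8), and 83.4 and 77.6 FPKM in IMX372 (DSE001 and DSE002), and limma's log2 change was 2.37 in IMX605 (adjusted p = 3.36e-05) and 2.45 in IMX606 (adjusted p = 2.82e-05). SNO1 rose by 1.84 (adjusted p = 0.000658) and 1.88 (adjusted p = 0.000630). ARO1, the pentafunctional enzyme of the shikimate pathway, averaged 81.4 and 84.1 FPKM in IMX605 and IMX606, against 47.8 FPKM in IMX372, and rose by 0.76 (adjusted p = 0.000941) and 0.81 (adjusted p = 0.000726). Chosen after its values were seen, ARO4, an isoenzyme that condenses erythrose 4-phosphate with phosphoenolpyruvate in the first step of that pathway, fell by 0.62 (adjusted p = 0.00120) and 0.49 (adjusted p = 0.00667). Among the PRPP synthetase genes, which consume ribose 5-phosphate and were also chosen after their values were seen, PRS1, PRS2, PRS3 and PRS5 fell in IMX605, and PRS2 and PRS3 fell in IMX606. Limma's adjusted p in IMX605 was 0.0258 for PRS1, 0.00891 for PRS2, 0.0227 for PRS3 and 0.0463 for PRS5. In IMX606 it was 0.0172 for PRS2 and 0.0398 for PRS3, and PRS4 passed in neither strain. Several of these lie near the threshold, and the ARO4 and PRS calls were not followed through the alternative settings.

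Of 8 regulator genes 0 rose and 2 fell in IMX605, MSN4 by 0.38 (adjusted p = 0.0218) and RAP1 by 0.36 (adjusted p = 0.0420) by limma. Of all genes tested 15.0% rose and 15.0% fell in that comparison. The MSN4 call ended without IMX605 R12 (adjusted p = 0.142), IMX605 R7 (adjusted p = 0.0994) or IMX372 DSE002 (adjusted p = 0.102). The RAP1 call ended in 7 settings, among them without IMX605 R7 (-0.24, adjusted p = 0.340). In IMX606 limma called 0 of the 8, against 23.9% of all genes tested. There 3 of the 8 had an unadjusted p under 0.05 and voom called 3, against 2033 and 1417 of all 5459 genes tested. STB5, a zinc cluster regulator known for pentose phosphate genes, read 14.0 to 16.2 FPKM over the 6 libraries.

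The gene models with library profiles closest to each member were found by the root mean square difference of centred log2(FPKM + 1) values over the 6 libraries, a description that shares every library with the comparisons above. Closest to RKI1 were the ribosomal protein genes RPL26B (0.020), RPS13 (0.022) and RPS1A (0.034). Closest to RPE1 were the cell wall protein gene DAN4 (0.029), the nuclear ubiquitin ligase gene SAN1 (0.049) and ZWF1 (0.052). Closest to NQM1 were both gene models named RDL1 (0.18 and 0.19), a rhodanese domain protein gene, and SNZ1 (0.19). Closest to TKL2 were the biotin transporter gene BIO5 (0.082), ISF1 (0.087) and the zinc transporter gene ZRT1 (0.087). Closest to SHB17 were the histone chaperone gene NAP1 (0.046), the copper chaperone gene CCS1 (0.055) and the proteasome subunit gene RPN10 (0.057). The flat profiles of TKL1 and TAL1 lay nearest to those of STB5 (0.022), a gene model named RPL2B (0.024) and YNL247W (0.025), and of YEL025C (0.019), YKU80 (0.029) and POC4 (0.031).

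All 7 genes lie on the minus strand of the deposited coordinates, on 7 different chromosomes. Of the 14 nearest gene models on either side, 8 were called in IMX605 and 7 in IMX606, where 30.0% and 23.9% of all genes tested were called. TKL2 lies 465 bases from LYS2, a lysine synthesis gene on the same strand that rose by 0.58 in IMX605 (adjusted p = 0.00244) and by 0.65 in IMX606 (adjusted p = 0.00146) in limma's fit. On its other side, 1233 bases away and on the opposite strand, is a gene model named TEF1, a translation elongation factor gene. This model averaged 4499 FPKM in IMX605 and 4857 FPKM in IMX606, against 1438 FPKM in IMX372. It is listed as YPR080W, a chromosome 16 name like that of TKL1 (YPR074C), though it lies on chromosome 2. TEF1 has a near-identical copy, so both the name and the values are uncertain. Beside NQM1, RME1, a repressor of meiosis, fell by 0.39 (adjusted p = 0.0360) and 0.46 (adjusted p = 0.0226), calls that ended without IMX372 DSE001 (adjusted p = 0.0714 and 0.0589), without IMX372 DSE002 (0.191 and 0.151), and in each strain without 1 of its own libraries (R12, 0.298, and R13, 0.0836). UIP5, beside SHB17, fell by 0.87 (adjusted p = 0.000336) and 0.83 (adjusted p = 0.000524). RPS7A, a ribosomal protein gene beside RKI1, fell by 0.49 in IMX605 (adjusted p = 0.00436) and by 0.38 in IMX606 (adjusted p = 0.0199), and both calls ended without IMX372 DSE002 (adjusted p = 0.0559 and 0.150), that in IMX606 also without R13 (0.0558). ALB1, a ribosome biogenesis gene beside RPE1, fell by 0.38 in IMX605 (adjusted p = 0.0209) and by 0.36 in IMX606 (adjusted p = 0.0332), calls that ended without either IMX372 library (adjusted p between 0.0811 and 0.118), in IMX605 without either of its own (0.0543 and 0.153) and in IMX606 without R8 (0.167).

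The other called neighbours passed in 1 strain each, and the difference between strains was called for none of the 14. In IMX605 OPY2, beside TKL1, rose by 0.46 (adjusted p = 0.0225) and lost its call without R7 (0.157) or IMX372 DSE002 (0.174), and BUD8, a bud site selection gene beside TAL1, fell by 0.40 (adjusted p = 0.0283) and lost its call without any 1 of the 4 libraries compared (0.0791 to 0.151). In IMX606 YGR042W, beside NQM1, fell by 0.40 (adjusted p = 0.0342) and lost its call without any 1 library but R13 (0.0509 to 0.186). PHO86, ARF3, LTP1, ILV5 and UTH1 passed in neither comparison. For 5 of the 7 members a gene on the opposite strand lies within 500 bases, 6 genes at 130 to 302 bases, at 0.0220 to 2.99 times the member's level. The sources used here do not give the strand setting of the counting.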

How the data were processed

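The values used are FPKM as deposited by the authors, in 1 table of 5625 gene models by 6 libraries with coordinates on CEN.PK113-7D sequences. Tools listed in the submitters' processing notes, without role or order, are STAR (2.5.4a), SAMtools, featureCounts, DESeq2 and edgeR. Per the labels' protocols, libraries were made with a stranded mRNA kit. Whole reads were recovered from FPKM and gene length (100% of values above 0 within 0.01 of a whole number).

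Genes averaging 1 FPKM or more over the libraries were fitted as log2(FPKM + 1) with limma 3.58.1 (R 4.3.3), 1 mean per strain and an intensity trend, with 3 residual and 8.38 prior degrees of freedom. The fit was tried on simulated reads with 200 changed genes, a fixed spread and no difference between library sets. The comparisons with IMX372 call far more genes, so the trial does not show their error rate. P-values were adjusted over all 5459 genes. Ratios of paralogs were compared by exact permutation of cultures. Columns give the strain but no replicate number.

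The members and gene lists were chosen with earlier results of these data known. Named are all members, the oxidative genes, up to 3 called genes per other list, the 3 closest profiles per member and the nearest gene models. TDH2, ARO4 and the PRS genes are named outside this rule. Alternatives were other pseudocounts, filters and scalings, fits of 2 strains, no trend, each library left out, and voom on recovered reads. Promoters and coding sequences came from RefSeq R64 (all 7 members matched), aligned with Biopython 1.88 and BLAST 2.17.0. Python 3.11.15 was used.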

Additional observations from a re-analysis of the deposited data

How the results depend on the processing

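The calls of RKI1, TKL2 and NQM1 against IMX372 held in every alternative run for them, whereas those of RPE1 and SHB17 did not, as given above. Of the 7 members, 5 were called in IMX606 against IMX372, where 1304 of all genes were called. With a pseudocount of 5, without the filter on low values and with median-of-ratios factors 3 members were called. All genes called there numbered 1277, 1034 and 1298. With quantile normalization and without the trend 3 members were also called, against 1266 and 1181 of all genes. At a mean of at least 5 FPKM, where TKL2 is not tested, 2 members and 1144 of all genes were called. The filter settings also change the number of genes tested. Leaving out 1 library gave 3 to 5 called members in IMX605 and 4 in IMX606, and 0 between the single-locus strains.

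Over all genes, leaving out 1 library gave between 802 (without IMX372 DSE002) and 1942 calls in IMX605 against IMX372, where all libraries gave 1635, with 1031 without IMX605 R12 and 812 without IMX605 R7. In IMX606 against IMX372 it gave between 597 (without IMX372 DSE002) and 1256, where all gave 1304. In IMX605 against IMX606 it gave between 6 (without either IMX372 library) and 97 (without IMX606 R13), with 7 without IMX605 R7 and 17 without IMX606 R8, where all gave 11. There, 5 were called without the filter on low values and 6 with only these strains fitted. Median-of-ratios factors gave 55.7% of calls higher in IMX605 and 57.0% in IMX606, and equal sums gave 42.9% and 42.6%.

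Among the genes followed through the alternatives, signs turned only where no call was made. ARO4, the PRS genes, TDH2, STB5 and the uncalled neighbours were among those not followed. TAL1 in IMX605 against IMX372 was -0.027 with equal sums, -0.022 with quantile normalization and -0.048 to 0.070 with a library left out. TKL1 in IMX606 against IMX372 was -0.0059 with equal sums and -0.028 to 0.054 with a library left out, and GND1 there -0.048 with quantile normalization and -0.040 to 0.10 with a library left out. Between the single-locus strains the ranges with a library left out were -0.24 to 0.55 for NQM1, -0.013 to 0.25 for RPE1, -0.048 to 0.090 for SHB17 (-0.0090 with quantile normalization), -0.28 to 0.0067 for TAL1, -0.086 to 0.026 for TKL2 and -0.062 to 0.19 for the log2 ratio of TKL2 to TKL1. The cause was not tested. With 5 FPKM added to both genes, which shrinks ratios of low genes, the TKL2 to TKL1 difference from IMX372 was -0.56 in IMX605 and -0.65 in IMX606. A lone library of a strain was assumed to vary like the other strains. No paired analysis was possible because the columns carry no replicate number. With 2 cultures a strain, small differences are not detectable.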
